A study of Mus musculus with 12 samples.

Results

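The change in expression between stem cells and granulocyte-monocyte progenitors was examined within mice whose PU.1 protein carries the Q202L substitution, a change of 1 amino acid in the DNA-binding Ets domain that was selected because it disturbs binding of PU.1 to its partner c-Jun. The samples were chosen by their labels: 3 arrays of knock-in (KI) short-term hematopoietic stem cells (ST-HSC) and 3 arrays of KI granulocyte-monocyte progenitor-like cells (GMP-like), 6 of the 12 arrays in the series. The other 6 arrays, 3 of wild-type (WT) ST-HSC and 3 of WT GMP, served to test whether a change in KI cells differed from the change in WT cells, and they also entered the estimate of the spread between arrays and the quantile normalization. The labels give livers of newborn mice from an intercross of heterozygous animals of strain C57Bl/6. The text of the paper gives fetal liver for these populations and its reporting summary a mixed strain background, so the age and strain of each array are not settled. The KI mice were homozygous for PU.1 Q202L, and the WT mice were littermates.

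ST-HSC were sorted as cells without lineage markers that carried Sca-1 and c-kit and lacked CD150. The sample labels add presence of CD48, whereas the title of the series and the methods add its absence. GMP were sorted as lineage-negative, c-kit-positive, Sca-1-negative cells with high Fc gamma receptor II/III (CD16/32) and CD34. The KI cells were called GMP-like because their surface CD34 was intermediate. Homozygous KI mice die around birth, the cells are from perinatal liver and not from adult marrow, and the labels do not give the founder line, the sex or the number of pooled animals of a sample.

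PU.1, the product of Spi1, is an Ets transcription factor that sets the balance between myeloid, B-lymphoid and erythroid fates and is required for monocytes, macrophages and B cells. In normal maturation, ST-HSC silence self-renewal genes such as Mecom and Hlf and pass through multipotent stages before they become GMP. GMP make the enzymes of neutrophil primary granules and give rise to neutrophils, monocytes and, through related intermediates, eosinophils and basophils.

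Expression was measured on Affymetrix MG430v2 arrays, and each value is a deposited log2 intensity of a probe set from robust multi-array average (RMA) summarisation. A difference of 1 on this scale is a 2-fold change in signal. Of 45037 probe sets tested, 34945 had 1 gene symbol, and the brightest probe set stood for each of 18193 genes. The median value of an array lay between 5.03 and 5.10 in KI ST-HSC and between 4.73 and 4.79 in KI GMP-like cells, and it was likewise lower in WT GMP than in WT ST-HSC, so population and array scale cannot be told apart. For that reason a gene is said to have risen or fallen, or to have been called, only where limma gave a Benjamini-Hochberg adjusted p under 0.05 in the same direction on the deposited values, after subtraction of each array's median and after quantile normalization. All values, differences, standard errors (SE) and adjusted p-values below are those of limma on the deposited values, with n = 3 arrays per group and the SD over arrays. Whether the replicates of a group came from separate mice is not stated, and the p-values therefore reflect only array-to-array spread, part or all of which may be technical. In bulk RNA of sorted cells, fewer cells of a type and less RNA per cell cannot be told apart.

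Spi1 itself was 8.08, 8.18 and 8.16 in KI ST-HSC and 8.28, 8.95 and 8.71 in KI GMP-like cells. The arrays did not overlap, but the difference of 0.51 ± 0.19 (SE) was not called (adjusted p = 0.101). In WT cells Spi1 went from a mean of 7.97 to 8.26. The array reads the amount of transcript and not the point mutation, so this level does not check the genotype labels. Of the genes behind the sort gates, Cd34 averaged 9.62 ± 0.27 (SD) in KI ST-HSC and 6.79 ± 0.11 in KI GMP-like cells, a fall of 2.83 ± 0.15 (SE) on the log2 scale (adjusted p = 8.98e-06). Cd34 fell by 1.37 in WT, and the difference between the KI and WT changes, -1.46, just missed the threshold (adjusted p = 0.0559). Slamf1, which encodes CD150, fell by 3.77 in KI and Cd48 fell by 0.86. Fcgr3, which encodes CD16, was 0.69 higher in KI GMP-like cells (adjusted p = 0.0484), and its call ended without any 1 array except KI GMP-like replicate 3 and WT ST-HSC replicates 2 and 3 (adjusted p from 0.0501 to 0.147). Kit was not called. The annotation used named no probe set for Ly6a, which encodes Sca-1.

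Between KI ST-HSC and KI GMP-like cells, 370 genes rose and 684 fell, which is 2.03% and 3.76% of all genes tested. The KI counts of each gene list below are to be set against these shares. No arrays of the populations overlapped for 368 of the rises and 684 of the falls. These genes were called for a difference between the same arrays, so the lack of overlap adds no support of its own. No share without overlap is given for all genes tested. Among the genes that fell, 596 changed by more than 1 on the log2 scale, against 141 of those that rose. The split depended on the scale: the deposited values alone called 370 higher and 1870 lower, median-subtracted arrays 1561 higher and 702 lower, and quantile-normalized arrays 1003 higher and 885 lower. The median difference over all genes was -0.18 on the deposited scale, 0.14 after median subtraction and 0.03 after quantile normalization.

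The largest falls were taken among called genes whose arrays did not overlap and whose higher population had a mean of at least 8. Gem, a small GTP-binding protein that regulates calcium channels and cell shape, was 9.91, 10.01 and 10.27 in KI ST-HSC and 3.94, 4.34 and 3.66 in KI GMP-like cells. It fell by 6.08 ± 0.41 (SE; adjusted p = 3.86e-05), to a mean of 3.98. A mean under 4 is counted here as near background, and no fold is given against such a level. Lax1, an adaptor that restrains antigen receptor signalling, stood at 8.13, 7.89 and 8.22 in KI ST-HSC and at 3.16, 3.23 and 2.87 in KI GMP-like cells, and the corresponding WT means were 8.20 and 3.14. Both genes were picked for separating the KI populations, so that separation adds no support of its own. Myct1 fell by 4.38, Tjp1 (a tight junction scaffold) by 4.02 and Msrb3 (a methionine sulfoxide reductase) by 3.90. Rnf157 fell by 4.06 on average, but KI GMP-like replicate 2 was at 7.95 while replicates 1 and 3 were at 3.40 and 3.30, and its call ended with only the KI arrays in the fit (adjusted p = 0.0747) and without any 1 KI array except KI GMP-like replicate 2 (0.0712 to 0.0897).

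Most of the stem cell genes measured fell in KI cells. Of 21 such genes 13 fell, 8 were not called and none rose, with a median difference of -2.08 against -0.18 for all genes. Cd34 and Slamf1, genes of the sort gates, belong to this list and are among the 13. That part of the count is therefore not independent of the sort. ST-HSC were sorted as lacking CD150, the product of Slamf1, so the fall of Slamf1 ran against that gate. In WT cells 13 of the 21 fell and 1 rose, with a median of -1.73, against backgrounds of 4.46% of all genes falling and 2.72% rising in WT. All 13 KI calls held when any 1 of the 12 arrays was left out. Mecom, a transcription factor that maintains stem cells, was 6.94, 6.69 and 7.39 in KI ST-HSC and 2.18, 2.29 and 2.18 in KI GMP-like cells. It fell by 4.79 ± 0.29 (SE; adjusted p = 2.14e-05), to a level near background. Procr, the endothelial protein C receptor and a stem cell surface marker, went from 8.67, 9.65 and 10.00 to 5.24, 5.52 and 5.52. Neither gene had overlapping populations, which adds no support of its own, since both were called on the same arrays. Hlf, a stem cell transcription factor, was more variable: it went from 10.40, 10.65 and 10.99 to 8.21, 9.11 and 6.74, with a fall of 2.66 ± 0.51 (SE). Hoxa9 fell by 3.17, Esam by 3.64, Mycn by 2.44, Angpt1 by 1.63 and Mllt3 by 1.31. Gata2, a factor of stem, mast and megakaryocyte cells, was not called and averaged 11.12 ± 0.08 in KI ST-HSC and 11.81 ± 0.23 (SD) in KI GMP-like cells. In the Hox and Meis list, 4 of 13 genes fell and none rose: Hoxa9, Hoxa10 (by 3.44), Hoxb3 (by 2.39) and Hoxb4 (by 2.33), of which Hoxb4 lost its call without KI ST-HSC replicate 3 (adjusted p = 0.0517).

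**Figure D1:**
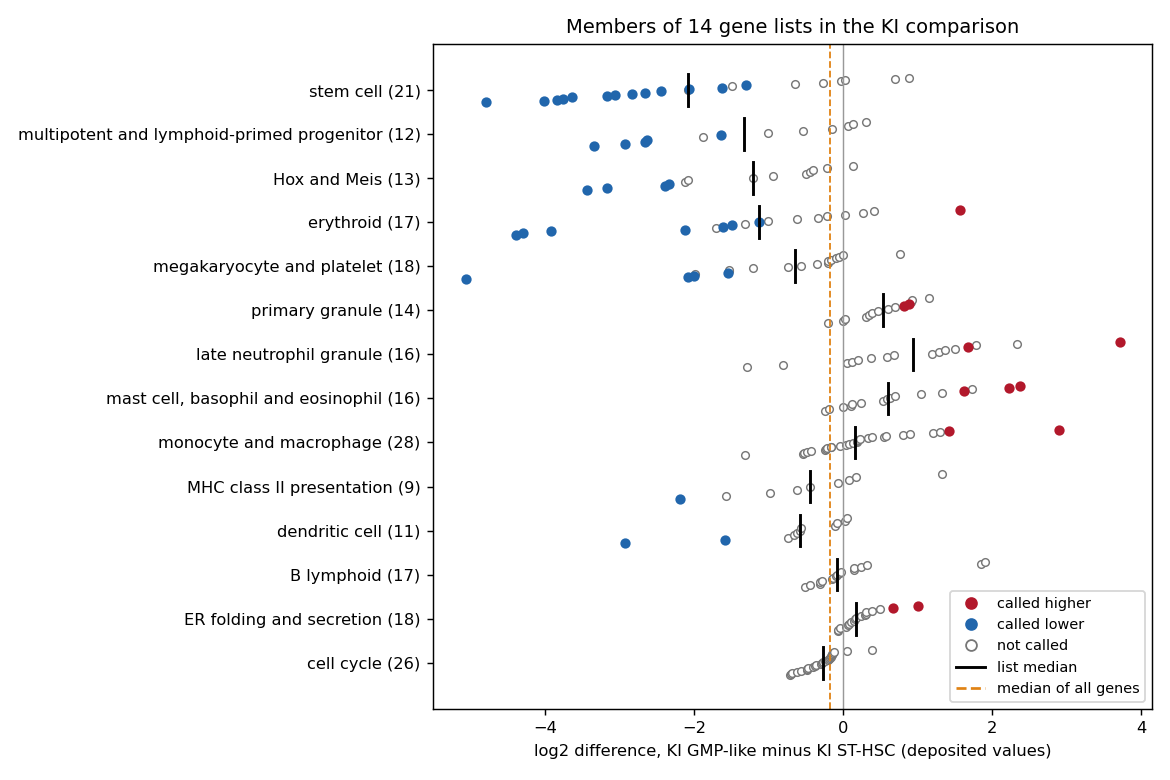
Each point is 1 gene of a list, placed by its log2 difference, KI GMP-like minus KI ST-HSC, on the deposited values (means of 3 arrays each). Filled points were called higher (red) or lower (blue) on all 3 scales, black bars are list medians, the dashed line is the median of all genes, and the number of genes measured follows each name. The stem cell, lymphoid-primed and Hox lists lie to the left, the 2 granule lists and the mast cell, basophil and eosinophil list to the right with few filled points.

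Some genes of multipotent and lymphoid-primed progenitors also fell. Of 12 measured members 5 fell, 7 were not called and none rose (median -1.33), and each of the 5 calls held without any 1 array. Flt3, a receptor that marks lymphoid-primed progenitors, was 7.64, 7.79 and 8.08 in KI ST-HSC and 4.84, 5.05 and 4.81 in KI GMP-like cells, a fall of 2.93 ± 0.51 (SE; adjusted p = 0.00566). WT means of Flt3 were 10.53 and 6.60, so the WT fall of 3.92 began at a higher level. Mef2c, a transcription factor of lymphoid and megakaryocyte cells, fell by 3.34 in KI and by 1.67 in WT (adjusted p of the difference = 0.158). Another probe set of Mef2c fell by 4.18 in KI and 2.19 in WT. Its difference of -1.99 had an adjusted p of 0.0445 on the deposited values but was not called on all 3 scales. Cd27 fell by 2.63, Hmga2 by 2.66 and Bcl11a by 1.64. By limma 0 of 26 genes of cell division were called in KI, although 6 were lower at an unadjusted p under 0.05, with a median of -0.28 on the deposited and 0.03 on the median-subtracted scale. Of 14 genes of the cyclin D and CDK inhibitor list 2 fell, 12 were not called and none rose in KI (median -0.15). The 2 were Cdkn1c, an inhibitor that keeps stem cells quiescent, which fell by 2.27, and Ccnd1, which fell by 2.14.

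Some erythroid and megakaryocyte genes fell in KI cells. Of 17 erythroid genes 7 fell and 1 rose (median -1.12), and of 18 megakaryocyte and platelet genes 4 fell and none rose (median -0.65). All 11 falling calls held without any 1 array. Car2, a carbonic anhydrase of stem cells and red cell precursors, was 12.28, 12.25 and 12.24 in KI ST-HSC and 7.99, 8.32 and 7.27 in KI GMP-like cells, a fall of 4.40 ± 0.41 (SE), or 21.0-fold. Ermap, an erythroid membrane protein, went from 9.86, 9.20 and 8.63 to 5.28, 4.82 and 4.71. Aqp1, the red cell water channel, fell by 3.92, and Rhag, Ank1, Rhd and Alas2 fell by 2.12, 1.61, 1.50 and 1.12. Kel, a blood group protein, ran the other way with means of 6.50 and 8.06, and its call (adjusted p = 0.0281) ended without any 1 of KI ST-HSC replicates 1 and 2 and KI GMP-like replicates 2 and 3 (0.0621 to 0.0913).

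Pf4, platelet factor 4, was 9.47, 8.87 and 8.69 in KI ST-HSC and 3.47, 4.54 and 3.83 in KI GMP-like cells, a fall of 5.06 ± 0.78 (SE; adjusted p = 0.00314) to a mean of 3.95, near background. In WT, Pf4 averaged 5.52 ± 1.44 and 4.72 ± 1.48 (SD), and the difference between the KI and WT changes, -4.26, was not called (adjusted p = 0.265). Clec1b fell by 2.09 and Gp9 by 1.54 in KI, and Vwf, von Willebrand factor, fell from a mean of 5.85 to 3.84, also near background. Of 13 erythroid and megakaryocyte transcription factors, Mef2c, Lmo2 (by 2.14) and Gfi1b (by 1.50) fell and none rose. Gfi1b, a repressor needed for red cells and platelets, was 9.23, 8.79 and 9.19 in KI ST-HSC and 7.74, 7.32 and 7.65 in KI GMP-like cells. Gata1, the leading factor of both lineages, averaged 7.87 ± 0.33 and 7.86 ± 0.07 (SD) and was not called. In WT 3 erythroid and 4 megakaryocyte genes fell, and none of the genes of these lists passed the test of a difference between the KI and WT changes.

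Genes of neutrophil primary granules had a median level of 10.05 in KI ST-HSC and 10.28 in WT ST-HSC, and ranged down to Fcnb, a ficolin, at 3.70 in KI ST-HSC. Of 14 measured members 2 rose and none fell in KI, whereas 10 rose and none fell in WT. The median differences were 0.54 in KI and 1.46 in WT. Mpo, myeloperoxidase, was 13.44, 13.44 and 13.40 in KI ST-HSC and 13.43, 13.51 and 13.41 in KI GMP-like cells, so the populations overlapped and did not differ beyond their spread (difference 0.02 ± 0.13, SE). Ctsg, cathepsin G, was 13.12, 12.78 and 12.61 against 13.31, 13.28 and 13.07 (adjusted p = 0.333). In WT both rose, Mpo by 0.45 and Ctsg by 1.40.

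Elane and Prtn3 encode elastase and proteinase 3, the other main serine proteases of the granule. Elane averaged 9.75 ± 0.73 and 10.68 ± 0.56 (SD) in the KI populations (adjusted p = 0.179) and 10.32 and 12.29 in WT. Prtn3 averaged 10.01 ± 0.25 and 10.92 ± 0.48 (adjusted p = 0.0837), against 10.24 and 12.02 in WT. Ms4a3, a membrane protein of GMP, was 5.30, 5.17 and 3.89 in KI ST-HSC and 4.22, 5.06 and 4.46 in KI GMP-like cells, and its WT means were 9.60 and 11.41. The 2 genes that rose in KI were Nkg7 (difference 0.89, adjusted p = 0.0257) and Lyz1 (0.82, adjusted p = 0.016). The Nkg7 call ended without any 1 of KI ST-HSC replicates 2 and 3 and KI GMP-like replicates 1 and 2 (adjusted p from 0.0681 to 0.0933). The Lyz1 call ended without any 1 of KI ST-HSC replicates 2 and 3 and KI GMP-like replicate 3 (0.0504 to 0.0637), with only the KI arrays in the fit (0.0502) and over the mean of its probe sets (0.191). No primary granule gene passed the test of a difference between the KI and WT changes.

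Of 16 genes of later neutrophil granules and products, 2 rose and none fell in KI (7 rose and 1 fell in WT), with a median of 0.93. Pglyrp1, a bactericidal peptidoglycan recognition protein, was 7.50, 7.19 and 7.50 in KI ST-HSC and 9.20, 9.35 and 8.67 in KI GMP-like cells, a rise of 1.68 ± 0.20 (SE; adjusted p = 0.000824). The WT rise of 1.64 was of like size, and the Pglyrp1 call held without any 1 array. Camp, the cathelicidin antimicrobial peptide, was 4.93, 5.30 and 5.26 in KI ST-HSC and 11.19, 6.86 and 8.58 in KI GMP-like cells, a rise of 3.71 ± 0.92 (SE; adjusted p = 0.0271). Without KI GMP-like replicate 1 the difference was 2.55. The call ended with only the 6 KI arrays in the fit (adjusted p = 0.0575) and without any 1 of the KI ST-HSC replicates or KI GMP-like replicate 3 (0.059 to 0.0759). S100a8 and S100a9 averaged 11.21 ± 0.96 and 11.42 ± 0.96 (SD) in KI GMP-like cells and were not called.

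Some genes of eosinophils and basophils rose in KI. Of 16 measured members 3 rose and none fell in KI (8 rose and 1 fell in WT), with a median of 0.60. Siglecf, a sialic acid-binding receptor of eosinophils, was 4.94, 3.77 and 4.65 in KI ST-HSC and 7.13, 7.07 and 6.27 in KI GMP-like cells, a rise of 2.37 ± 0.39 (SE; adjusted p = 0.00411) that held without any 1 array. Mcpt8, a protease of basophils, went from 8.41, 8.07 and 7.68 to 10.46, 9.03 and 9.54, a rise of 1.63 ± 0.35 (adjusted p = 0.0152). Prg2, the eosinophil major basic protein, went from 8.73, 8.54 and 8.49 to 10.99, 10.65 and 10.80, a rise of 2.23 ± 0.64. None of the 3 genes had overlapping KI populations, which adds no support of its own, since they were called on the same arrays. The Mcpt8 call ended without KI ST-HSC replicate 2 (adjusted p = 0.0517) or 3 (0.061). The Prg2 call (adjusted p = 0.0454) ended without any 1 KI array (0.0852 to 0.121) and without 4 of the 6 WT arrays: WT ST-HSC replicate 1 (0.0544) and WT GMP replicates 1 (0.057), 2 (0.0523) and 3 (0.0589), since the WT arrays share in the estimate of the spread.

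Prg3, a relative of Prg2, was no list member but was among the 10 largest rises: it went from 6.55, 6.18 and 6.12 to 9.35, 8.40 and 7.90 (adjusted p = 0.0192), a call that ended without KI ST-HSC replicate 2 or 3 or KI GMP-like replicate 1 (0.0604 to 0.0656). Alox15, a lipoxygenase of eosinophils and macrophages, went from 5.27, 5.58 and 5.42 to 9.29, 7.75 and 9.41, a rise of 3.39 ± 0.55 (adjusted p = 0.00405) that no alternative ended, and its WT means were 6.10 and 6.84. Epx, eosinophil peroxidase, averaged 6.54 ± 0.58 and 8.26 ± 0.71 (SD) in KI (adjusted p = 0.0892). Hdc and Cpa3, histidine decarboxylase and mast cell carboxypeptidase, averaged 10.85 and 10.88 in KI ST-HSC and were not called by their brightest probe sets, whereas the other probe set of Hdc was called (difference 1.24, adjusted p = 0.0492). The promoters of Mcpt8, Siglecf and Prg3, which rose, are shown to let their sequence be read beside that of Pf4, which fell. They are the 150 bases before the RefSeq start of the gene (GRCm38.p6), read 5′ to 3′ on the strand of the gene, at chr14:56085198-56085347 (minus strand) for Mcpt8, chr7:43351191-43351340 (plus) for Siglecf, chr2:84988065-84988214 (plus) for Prg3 and chr5:90772285-90772434 (plus) for Pf4. Capitals mark the Ets core motif of PU.1, searched as GAGGAA on both strands (TTCCTC on the other strand).
Mcpt8: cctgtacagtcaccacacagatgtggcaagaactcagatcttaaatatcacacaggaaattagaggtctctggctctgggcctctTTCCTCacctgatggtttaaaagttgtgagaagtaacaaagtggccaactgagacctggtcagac
Siglecf: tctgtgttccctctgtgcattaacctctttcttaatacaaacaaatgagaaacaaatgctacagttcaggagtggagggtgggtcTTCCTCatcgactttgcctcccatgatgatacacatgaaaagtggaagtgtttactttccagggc
Prg3: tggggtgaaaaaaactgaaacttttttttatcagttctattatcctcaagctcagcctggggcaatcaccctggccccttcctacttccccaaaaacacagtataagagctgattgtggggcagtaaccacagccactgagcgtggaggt
Pf4: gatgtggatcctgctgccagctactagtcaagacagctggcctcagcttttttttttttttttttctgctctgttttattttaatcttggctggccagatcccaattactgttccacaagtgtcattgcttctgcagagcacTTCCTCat

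The 6 letters of the PU.1 core were in the Mcpt8, Siglecf and Pf4 windows and not in that of Prg3. They were in 14.6% of all 32475 promoter windows of this length. Neither AGATAA, the GATA motif (5.69% of all windows), nor TGANTCA, the AP-1 motif (4.23%), was in any of the 4 windows, on either strand. Of the 10 largest rises 7 had a promoter in the RefSeq table, 1 of them with the PU.1 core, and of the 10 largest falls 8 had one, 2 of them with the core. A match of letters is not a binding site, and genes on either side of the comparison carried it.

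**Figure D2:**
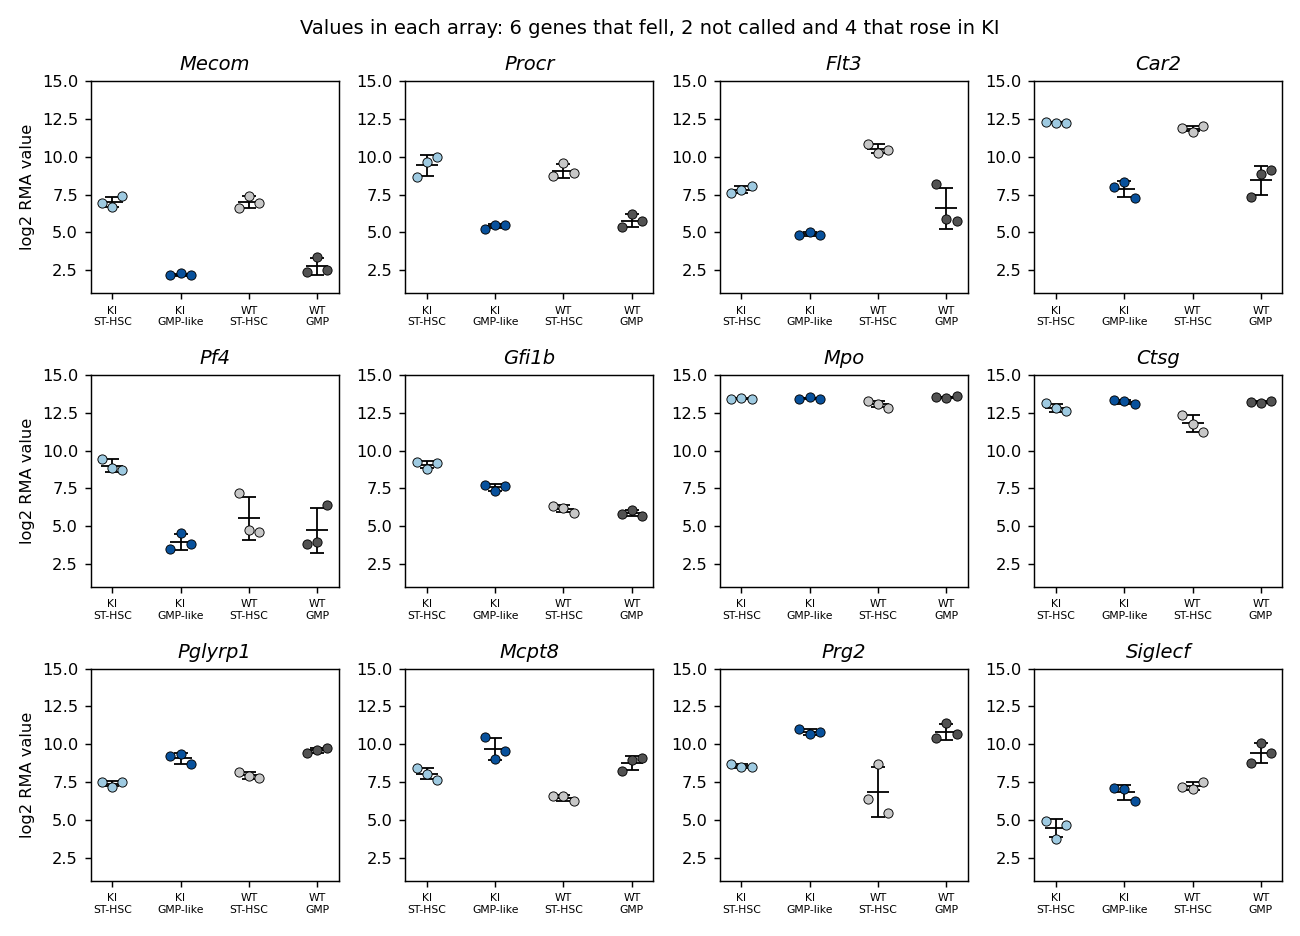
Deposited log2 RMA values of 12 genes in each of the 12 arrays. Points are arrays, horizontal bars the mean and whiskers the SD of 3 arrays. In KI cells Mecom, Procr, Flt3, Car2, Pf4 and Gfi1b fell, Mpo and Ctsg were near 13 in both, and Pglyrp1, Mcpt8, Prg2 and Siglecf rose.

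Monocyte and macrophage genes were low in both KI populations. Of 28 measured members 2 rose and none fell in KI, and in WT none rose and 7 fell. Over the members, the mean level of an array was 4.28 to 4.61 in KI ST-HSC and 4.61 to 4.76 in KI GMP-like cells, against 7.10 to 7.31 in WT ST-HSC and 6.32 to 6.65 in WT GMP. Members with a group mean under 4 numbered 12 in KI ST-HSC and 15 in KI GMP-like cells, and 3 in each WT population. Tyrobp, the adaptor of activating myeloid receptors, was 9.38, 9.17 and 9.16 in KI ST-HSC and 11.60, 10.16 and 10.23 in KI GMP-like cells (adjusted p = 0.0169). It averaged 12.22 in both WT populations, and its KI call ended with only the KI arrays in the fit (0.0607) and without KI ST-HSC replicate 2 (0.0608) or 3 (0.058).

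Csf1r, the M-CSF receptor and a target of PU.1, was uneven: 3.49, 3.32 and 5.27 in KI ST-HSC and 8.57, 4.71 and 7.50 in KI GMP-like cells, so the populations overlapped. Its call (adjusted p = 0.0469) ended without any 1 array but KI ST-HSC replicate 3 and KI GMP-like replicate 2 (0.0574 to 0.152), with only the KI arrays in the fit (0.113) and over the mean of its probe sets (0.0535). Its other 2 probe sets differed by 0.69 and 0.12 and were not called, and the WT means were 11.13 and 10.85. Irf8, a transcription factor of monocytes and dendritic cells, averaged 4.98 ± 0.76 and 5.88 ± 0.46 (SD) in KI and was not called, whereas in WT it fell by 2.22 from a mean of 11.28. Mpeg1, perforin-2, stayed between 3.24 and 4.19 in all 6 KI arrays and fell by 2.54 from 11.21 in WT. Lgals3, galectin-3, went from 6.87, 6.88 and 7.65 to 8.81, 8.01 and 8.48 in KI and fell by 3.46 in WT, and the KI change exceeded the WT change by 4.76 ± 0.55 (SE; adjusted p = 0.0192). This call on Lgals3 ended without any 1 of KI ST-HSC replicates 1 and 2, KI GMP-like replicate 1 and WT GMP replicates 1 and 3 (0.0502 to 0.0828) and with a replicate block (0.118).

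The genes of MHC class II antigen presentation were also low in both KI populations. Of 9 measured members 1 fell in KI and 8 fell in WT, with medians of -0.45 and -3.07. The median level was 4.79 in both KI populations, against 9.57 in WT ST-HSC and 6.50 in WT GMP. H2-DMa, a peptide-loading chaperone, was the member that fell in KI, from 7.03, 6.70 and 7.22 to 4.02, 5.23 and 5.11 (adjusted p = 0.00414). Cd74, the invariant chain, stayed between 4.37 and 5.16 in all KI arrays, while it fell by 4.68 in WT from a mean of 11.53. H2-Ab1 averaged 6.39 and 5.94 in KI and 12.57 and 8.04 in WT. For none of these did the difference between the KI and WT changes pass over all probe sets (adjusted p = 0.219 for Cd74 and 0.318 for H2-Ab1), and the WT GMP arrays had an SD of 1.95 for Cd74 and 1.88 for H2-Ab1. Of 11 dendritic cell genes, Flt3 and Tcf4 fell in KI.

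Of 17 B-lymphoid genes 0 were called in KI by limma, 1 was higher at an unadjusted p under 0.05, and 5 fell in WT. Ighm, the immunoglobulin mu heavy chain, was 5.93, 5.65 and 5.20 in KI ST-HSC and 5.63, 5.20 and 5.49 in KI GMP-like cells, which overlapped. In WT it fell by 3.69, from a mean of 8.77 to 5.08. The difference between the changes, 3.54 ± 0.30 (SE), passed the test (adjusted p = 0.00271) and did so without any 1 array. This was the brightest probe set of Ighm, and no other probe set of the gene passed that test. Another, less bright probe set was called lower in KI, by 0.82 (adjusted p = 0.0074). Il7r, the interleukin-7 receptor, averaged 2.83 ± 0.37 and 4.73 ± 1.42 (SD) in KI (adjusted p = 0.1) and fell by 4.38 in WT, and the difference between the changes was 6.28 (adjusted p = 0.076).

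**Figure D3:**
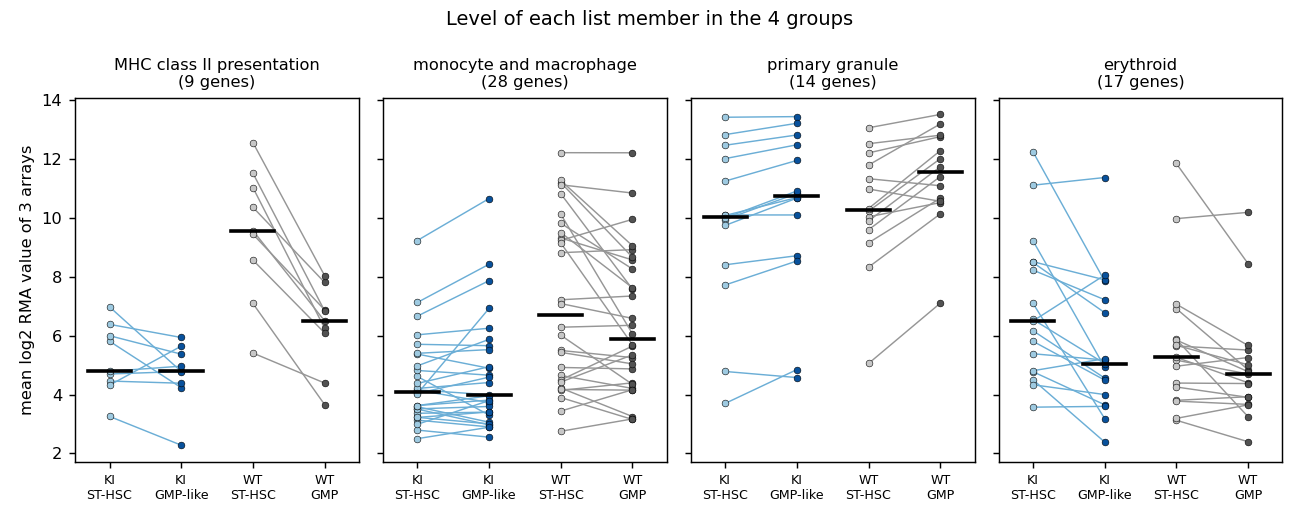
Mean log2 RMA value (3 arrays) of each member of 4 gene lists in the 4 groups. Lines join the populations of 1 genotype and black bars are medians over the members. MHC class II genes have a median of 4.79 in both KI populations against 9.57 and 6.50 in WT, monocyte genes have medians of 4.10 and 3.98 in KI against 6.69 and 5.88, primary granule genes lie high in KI ST-HSC, and erythroid genes have medians of 6.50 and 5.06 in KI.

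Among 18 myeloid transcription factors 1 rose and none fell in KI, where 2.03% of all genes rose and 3.76% fell. A count of 1 gene says little about the list. Fos, a partner of c-Jun in the AP-1 complex, went from 4.77, 4.07 and 5.50 to 7.83, 6.24 and 7.95, a rise of 2.56 ± 0.63 (SE; adjusted p = 0.0262). Its call ended without KI ST-HSC replicate 1 or 2 or KI GMP-like replicate 1 or 3 (0.0678 to 0.0993), and its WT means were 5.53 and 5.20. Jun itself went from 7.44, 7.44 and 7.83 to 9.51, 7.98 and 10.00 and was not called (adjusted p = 0.121). The other probe set of Jun differed by 0.64 and was not called either (adjusted p = 0.69). Cebpa, the leading factor of granulocyte commitment, averaged 10.26 ± 0.05 and 11.04 ± 0.03 (SD) without overlap (adjusted p = 0.0635). In WT, Cebpa rose by 1.39 from 9.04.

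Of 18 genes of folding and secretion in the endoplasmic reticulum 2 rose in KI and 9 in WT, and none fell in either. Their median difference was 0.17 in KI and 0.58 in WT, and none passed limma's test of the difference between the KI and WT changes. Xbp1, a transcription factor of the unfolded protein response, rose from a mean of 8.35 to 9.35 (adjusted p = 0.0169) and Sdf2l1 rose by 0.67 (0.0436) in KI. The Xbp1 call ended without any 1 of KI ST-HSC replicates 2 and 3 and KI GMP-like replicate 1 (0.0531 to 0.0666), and the Sdf2l1 call without any 1 array except KI GMP-like replicate 3 and WT GMP replicates 1 and 3 (0.0502 to 0.13). Of 12 glycolysis genes 1 rose, 11 were not called and none fell in KI (median -0.005), which says little about the list. It was Hk2, a hexokinase, which went from 10.33, 10.11 and 10.06 to 11.07, 11.12 and 11.16. This rise of 0.95 ± 0.12 (SE; adjusted p = 0.00119) held without any 1 array. By limma 0 of 20 ribosome biogenesis genes were called in KI, and 6 were lower at an unadjusted p under 0.05.

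Set beside WT maturation, which shares no array with the KI comparison, 168 of the genes that rose in KI also rose in WT, 45.4% of the KI and 34.0% of the WT rises. Of the genes that fell, 354 fell in both, 51.8% of the KI and 43.6% of the WT falls, and 1 gene in each direction was called the opposite way in WT. They were B4galt6, and Slfn2, a regulator of lymphocyte quiescence, which rose by 1.09 in KI and fell by 1.37 in WT. The KI call of Slfn2 ended without any 1 KI array except KI ST-HSC replicate 3 (adjusted p from 0.0512 to 0.0783). Both comparisons share the step in array scale between the populations, which was part of every value. By the brightest probe set of a gene, the test of the difference between the changes called 5 genes higher and 2 genes lower in KI than in WT, 0.0275% and 0.011% of all genes. The 5 were Ighm, Lgals3, Bmp4, Ctnnd2 and Gcsam, and the 2 were B4galt6 and Tes. Further genes were called on all 3 scales only by a less bright probe set. Higher in KI were Satb1 (difference 3.46, adjusted p = 0.0108) and Il13ra1 (2.21, 0.00271). Lower were Ldhb (-3.64, 0.00271), Cldn2 (-2.52, 0.00271), Nrk (-2.33, 0.0372) and Hibch (-1.52, 0.0258). Bmp4, a bone morphogenetic protein, was 4.32, 3.45 and 3.55 in KI ST-HSC and 7.03, 6.74 and 6.34 in KI GMP-like cells, a rise of 2.93, against a difference of -0.89 in WT (adjusted p of the difference = 0.013). Its call ended without KI ST-HSC replicate 2 (0.0547) or 3 (0.0573). Ctnnd2, delta-catenin, and Gcsam, a germinal centre signalling protein, fell in WT by 3.89 and 4.45 while their KI differences were -0.18 and -1.42, the latter called. With a replicate block the calls on the difference ended for Ctnnd2 (0.0835) and Gcsam (0.0724). B4galt6, a galactosyltransferase, fell by 2.24 in KI and rose by 1.06 in WT (difference -3.29 ± 0.42, SE; adjusted p = 0.0365). Tes, a focal adhesion protein, was 8.09, 7.72 and 8.26 in KI ST-HSC and 5.65, 5.28 and 5.51 in KI GMP-like cells. This fall of 2.54 stood against a difference of -0.67 in WT (adjusted p of the difference = 0.0365). The B4galt6 call ended without any 1 array except KI GMP-like replicate 3 and the WT ST-HSC replicates (0.0509 to 0.0984), and the Tes call without any 1 array except KI ST-HSC replicate 2 and WT ST-HSC replicates 1 and 2 (0.0514 to 0.107), with a replicate block (0.0895) and with trended variances (0.0577). Slc26a3, an anion exchanger, rose by 2.36 in KI and averaged 3.73 and 3.48 in WT (adjusted p of the difference = 0.0844).

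**Figure D4:**
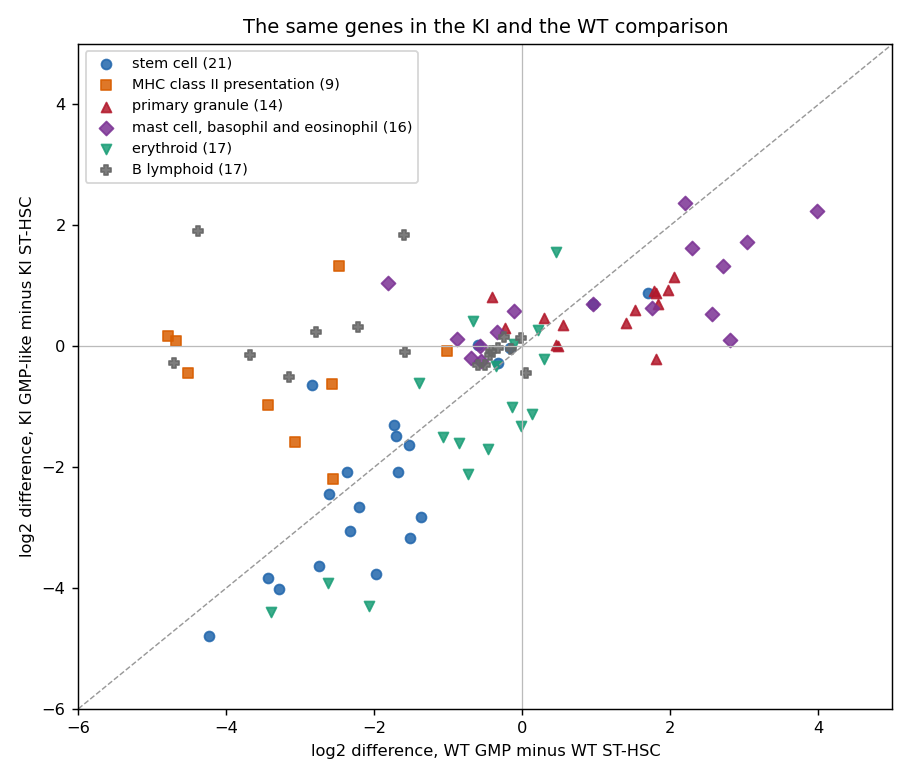
Log2 difference of each gene in KI (vertical) against that in WT (horizontal) for 6 gene lists, on deposited values (3 arrays per group). The dashed line marks equal change. Most stem cell genes lie in the lower left near or below the line, most MHC class II and several B-lymphoid genes lie above it at the left, and most primary granule genes lie to the right and below it.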

How the data were processed

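The authors hybridised amplified RNA of sorted cells to Affymetrix MG430v2 arrays, and the deposited values are log2 RMA intensities. RMA is named in the submitters' processing notes without a version. Array number, not read depth, limits the precision. Of 45101 probe sets, 64 controls were left out. Names came from GEO's platform annotation, which gave 34945 probe sets 1 symbol, 932 several and 9160 none. Of those with 1 symbol, 34741 were matched to RefSeq by gene ID, and a gene was represented by its brightest probe set. Of 523 listed genes 472 were measured. limma 3.58.1 in R 4.3.3 was fitted to 4 group means over all 12 arrays, tested on simulated data, and adjusted over 45037 probe sets. No pair of arrays held identical values.

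The samples and the 32 gene lists were chosen with earlier results of these data known. Named were the 10 largest rises and falls that did not overlap and had a mean of at least 8 in the higher population, up to 4 members of each list by adjusted p, sort markers, primary granule genes, Spi1, and the 10 genes in each direction with the smallest p between KI and WT and a mean of at least 8 in some group. Other members were named after their values were seen. The alternatives were the 3 scalings, the 6 arrays of 1 genotype, a filter, probe set suffixes, trended variances, a fold limit, significance analysis of microarrays (SAM, which the study's methods use for KI against WT), a replicate block, the mean of a gene's probe sets, and each array left out.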

Additional observations from a re-analysis of the deposited data

Results flagged for a closer look

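For 9 genes, each by its brightest probe set, the change from ST-HSC to GMP-like cells differed between KI and WT by limma's test of the difference itself. The KI change exceeded the WT change by 3.54 for Ighm, 4.76 for Lgals3, 3.82 for Bmp4, 3.71 for Ctnnd2 and 3.03 for Gcsam. The KI change minus the WT change was -3.29 for B4galt6, -1.88 for Tes, -1.54 for Cd320 (the transcobalamin receptor) and -2.43 for Tuba8 (an alpha tubulin). In KI, Cd320 averaged 8.85 ± 0.12 and 8.39 ± 0.06 (SD) and Tuba8 8.23 ± 0.27 and 7.62 ± 0.07, neither called, while both rose in WT. Their adjusted p of 0.0414 and 0.0445 for the difference rose to 0.0581 and 0.0539 after median subtraction, so they were not among the 7 genes called on all 3 scales. Without single arrays the Cd320 call ended in all cases except WT ST-HSC replicate 2 and WT GMP replicate 2 (adjusted p from 0.0519 to 0.13), and the Tuba8 call in all except WT ST-HSC replicate 2 and WT GMP replicate 1 (0.0518 to 0.144). Groups of 3 arrays were not tested for single outlying samples.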

How the results depend on the processing

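Counts here are of probe sets past an adjusted p of 0.05 by limma, unless another test is named. From KI ST-HSC to KI GMP-like cells 921 were higher and 4587 lower. The counts became 3825 and 1767 with array medians subtracted, 2391 and 2173 after quantile normalization, so that rises then outnumbered falls, 226 and 1634 after a filter on low values, 348 and 2261 with a log2 difference over 1, and 11 and 565 with SAM. With the replicate number as a block they were 532 and 2876. The main fit did not use the numbers as pairs. The deviations of same-numbered arrays correlated at 0.035, -0.100 and 0.003 in KI and 0.147, 0.164 and 0.062 in WT, not all over 0.1. These values cannot decide whether same-numbered samples shared an origin, since differently numbered arrays were not compared. Without single arrays the counts ran from 356 to 967 and from 2190 to 4875. The rises were fewest without KI ST-HSC replicates 3 (356), 2 (381) and 1 (483) and KI GMP-like replicates 3 (551) and 1 (605), and the falls without KI ST-HSC replicates 2 (2190), 3 (2386) and 1 (3005) and KI GMP-like replicate 3 (3037). Of the probe sets, 1716 were lower on all 3 scales. In WT 1098 were higher and 4809 lower, which became 438 and 2103 with the WT arrays alone, 4009 and 1987 with medians subtracted, 2764 and 2400 after quantile normalization, 425 and 1543 after the filter, 484 and 2424 over a log2 difference of 1, and 0 and 110 with SAM, whereas limma had 2838 higher at an unadjusted p under 0.05. The block gave 713 higher, 1936 were lower on all 3 scales, and single arrays left out gave 661 (without WT ST-HSC replicate 3) to 1078 and 3066 (without WT GMP replicate 3) to 4684. For the difference between KI and WT, 9 were higher and 13 lower. The filter gave 16 higher, and 8, 7 and 5 were lower with medians subtracted, trended variances and the block, 7 on all 3 scales. Without single arrays the counts ran from 4 (KI ST-HSC replicate 2 left out) to 36 (WT ST-HSC replicate 2) and from 2 (KI ST-HSC replicate 3, KI GMP-like replicate 1 or WT GMP replicate 3) to 24 (WT ST-HSC replicate 1). The count on all 3 scales was added after the data were seen. The cause of these shifts was not tested. No named gene with a call changed direction, but 10 uncalled ones changed sign with medians subtracted and 8 after quantile normalization. Of 72 named genes called in KI on all 3 scales, 51 kept their call with the KI arrays alone, trended variances, the block, the mean of probe sets and each array left out. SAM, the filter, the probe set suffixes and the fold limit were compared by counts only. With 3 arrays per group, a difference smaller than the spread between arrays was not detectable.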

Other observations

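Lists for other cells of the liver and the blood were measured as well. Against 2.03% of all genes rising and 3.76% falling in KI, a count of 1 gene says little about a list. In KI, 1 of 14 hepatocyte genes fell and none rose: Hnf4a, a liver transcription factor, averaged 6.34 ± 0.57 (SD) in ST-HSC and 3.78 ± 0.16 in GMP-like cells, and it also fell in WT, by 2.14. The mean level of the hepatocyte list in an array was 4.96 to 5.16 in KI ST-HSC and 4.63 to 4.90 in KI GMP-like cells. Of 12 endothelial genes 2 fell in KI, Emcn (by 3.01) and Tie1 (by 2.86), both also found on stem cells, and Flt1 rose by 1.03. Of 14 T and NK cell genes 1 rose, the protease gene Gzmb, from 5.23, 4.77 and 5.24 to 6.15, 6.20 and 5.97 (adjusted p = 0.0044 by limma). Of 17 interferon response genes 1 fell in KI, Rsad2 (by 3.13), and 6 fell in WT. The part of other cell types in the results was not tested. None of 4 sex-linked genes was called in KI. From KI ST-HSC to KI GMP-like cells, the Y-linked Eif2s3y averaged 9.09 and 8.90, Kdm5d 9.60 and 9.73, and the X-linked Xist 3.65 and 3.20. The mean level of this list in an array was 6.71 to 7.37 in KI and 4.91 to 7.12 in WT. That mean joins Xist with Y-linked genes and so is not a measure of sex. Whether the genotypes differed in sex was not tested.

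Apoc1, an apolipoprotein, rose in both genotypes, by 2.31 in KI and 2.89 in WT, and Cyp11a1, the first enzyme of steroid synthesis, averaged 7.86 and 9.88 in KI and 4.35 and 6.10 in WT. The KI call of Cyp11a1 (adjusted p = 0.0178 by limma) ended without any 1 of KI ST-HSC replicates 2 and 3 and KI GMP-like replicates 1 and 3 (0.0542 to 0.0684) and over the mean of its probe sets (0.0731).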
